A study of Rattus norvegicus with 10 samples.

Results

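The genes described here are 10 regulators of mitochondrial biogenesis and of fatty acid use in the heart, chosen by symbol among the 18025 genes with deposited values. They are the PGC-1 coactivators Ppargc1a and Ppargc1b, the estrogen-related receptors Esrra, Esrrb and Esrrg, the receptors Ppara, Ppard and Rxrg, the transcription factor Nrf1, and Tfam, which acts on mitochondrial DNA. Messenger RNA of wild-type fetal Sprague-Dawley rat hearts at embryonic day 19.5 was sequenced in 5 control (CON) and 5 hyperglycemia (HG) libraries. The CON dams had received citric acid buffer, so that buffer injection was shared by the groups. The HG dams had received streptozotocin in the same buffer, a compound toxic to the insulin-producing beta cells. The study's methods place the injections after mating, whereas its introduction places streptozotocin before pregnancy. The animals were 3 months old, injections were repeated on 3 consecutive days, and the treated dams had a non-fasting blood glucose above 16 mM 7 days later. Streptozotocin was given to the dam rather than to the fetus, so that the groups differ by maternal diabetes and by any effect of the compound itself, which cannot be told apart. The methods mention overnight fasting before injection for the HG dams and do not state it for the CON dams. Any effect of fasting cannot be told apart either. The labels do not say which libraries share a dam or litter, so that p-values measure the spread between these libraries. The study's methods mention pooling of RNA. No pair of the 10 deposited columns holds the same values, which does not say whether each library came from a single heart.

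PGC-1α, the product of Ppargc1a, binds no DNA itself and acts by docking on nuclear receptors and other factors, with PGC-1β as its close relative. With estrogen-related receptors it drives genes of the respiratory chain and the citric acid cycle, and with PPARs, which pair with retinoid X receptors on DNA and respond to fatty acids, it drives genes of fatty acid import and oxidation. NRF-1 acts on nuclear genes that serve the mitochondrion, among them Tfam, whose product enters the mitochondrion, packs its DNA and starts its transcription. Around birth the heart changes from glucose and lactate toward fatty acids as its main fuel, and these regulators are known for their part in that change.

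Values are FPKM, read numbers divided by gene length and by library size, which allows levels of different genes to be set side by side. Libraries held 17639895 to 18240006 reads on genes in CON and 16672876 to 19109844 in HG, and this depth did not differ detectably (two-sided exact permutation test, p = 0.77, n = 5 libraries each). Differences are log2 fold changes of HG against CON on the log2(FPKM + 0.1) scale, which understates changes of low genes, and a gene was called where limma's Benjamini-Hochberg adjusted p over 14542 tested genes was under 0.05. Cardiomyocyte markers were abundant in every library, with a summed level of 10671 to 11353 FPKM in CON and 9511 to 11141 FPKM in HG over 8 cardiomyocyte genes. Of these 8, 7 were lower in HG and 1, Nppa, was higher, with means of 1733 FPKM in CON and 2855 FPKM in HG. The sum therefore does not compare cardiomyocyte content between the groups. CON replicate 3 stood apart by liver genes, with 77.4 FPKM summed over 5 markers against 3.15 to 7.87 FPKM in the other CON libraries and 1.33 to 2.60 FPKM in HG.

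Promoters of 4 members are shown first, as the 250 bases before the start of the gene, read 5′ to 3′ on the strand of the gene from RefSeq's GRCr8 assembly. They are the coactivator Ppargc1a at chr14:63634058-63634307 (plus strand), its partner Esrra at chr1:213543306-213543555 (minus strand), Ppara at chr7:118712357-118712606 (plus strand) and Tfam at chr20:17355123-17355372 (plus strand). Capitals mark the motifs described after the sequences.
Ppargc1a: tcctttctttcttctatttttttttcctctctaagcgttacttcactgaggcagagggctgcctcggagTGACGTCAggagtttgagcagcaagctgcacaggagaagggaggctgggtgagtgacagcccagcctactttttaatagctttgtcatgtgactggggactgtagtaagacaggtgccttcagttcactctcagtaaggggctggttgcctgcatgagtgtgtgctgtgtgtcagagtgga
Esrra: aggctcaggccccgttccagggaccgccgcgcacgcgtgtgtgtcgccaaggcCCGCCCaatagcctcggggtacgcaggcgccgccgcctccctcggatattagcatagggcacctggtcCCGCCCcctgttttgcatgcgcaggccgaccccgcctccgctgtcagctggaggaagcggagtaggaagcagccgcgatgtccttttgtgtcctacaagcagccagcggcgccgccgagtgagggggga
Ppara: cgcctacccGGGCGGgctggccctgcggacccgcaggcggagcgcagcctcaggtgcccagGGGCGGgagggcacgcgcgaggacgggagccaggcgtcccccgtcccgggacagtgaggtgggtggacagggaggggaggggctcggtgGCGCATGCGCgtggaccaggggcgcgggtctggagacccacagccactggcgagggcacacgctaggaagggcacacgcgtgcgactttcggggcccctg
Tfam: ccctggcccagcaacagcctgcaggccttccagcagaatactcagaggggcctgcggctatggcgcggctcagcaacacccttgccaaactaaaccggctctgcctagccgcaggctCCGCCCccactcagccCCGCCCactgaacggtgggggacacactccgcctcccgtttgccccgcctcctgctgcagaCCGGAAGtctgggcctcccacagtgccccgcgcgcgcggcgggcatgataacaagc

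Windows were found for 9 of the 10 members, with Ppard as the member not matched, and Esrrg had 4 windows. Matches are counted by member, over 12 windows, whereas the percentages below are of windows, so that they are not on the same scale. Each motif was searched on both strands in the same 250 bases of 33469 windows of 27457 genes. The cyclic AMP response element TGACGTCA was found at 181 to 174 bases before the start of Ppargc1a and in no other member, and 1.59% of all windows held it. The palindrome that NRF-1 recognises, GCGCA followed by its reverse complement, was found only in Ppara among the members, at 100 to 91 bases before the start, and 0.762% of all windows held it. The window of Tfam held the ETS core CCGGAAG, the kind of element that NRF-2 binds, at 56 to 50 bases before the start, which 7.27% of all windows also held. The GC box GGGCGG, which reads CCGCCC on the other strand, was found in 6 members (Esrra, Esrrg, Nrf1, Ppara, Ppargc1b and Tfam) and in 30.5% of all windows. The nuclear receptor half-site AGGTCA was found in Esrrg alone among the members and in 14.1% of windows, and its longer form AAGGTCA, the preferred site of estrogen-related receptors, was found in 0 members and in 3.99% of windows. GC content of the printed windows was 50.4% for Ppargc1a, 68.8% for Esrra, 76.0% for Ppara and 68.4% for Tfam.

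All 10 members passed the filter on low values. In HG, Ppara, Esrra and Ppard were lower and Nrf1 was higher, whereas Ppargc1a, Ppargc1b, Esrrb, Esrrg, Rxrg and Tfam did not pass the test. Thus 4 of 10 members were called, beside 40.1% of all genes tested, a share at the background. By direction, 3 members were lower beside 11.8% of all genes, and 1 was higher beside 28.4%. On the log2(FPKM + 0.1) scale none of the 10 passed an absolute log2 fold change above 1, the cut-off of the study's methods, which 1.94% of genes passed. Ppara is on a list that the study drew from its own differentially expressed genes, which it found by another test at that cut-off. Here its log2 fold change was −0.90, short of the cut-off, and its 95% interval of −1.11 to −0.69 reached past it. The test and the scale differ from the study's, so that this miss does not speak against the study's call. The groups did not overlap for 3 members (Ppara, Esrra and Nrf1), beside 27.4% of all genes, 2 of them lower in HG, beside 8.12%, and 1 higher, beside 19.3%. Without CON replicate 3, the library with liver genes, 2 members were called (Ppara and Esrra), and the same number was called without CON replicate 1 or 5 or HG replicate 1, 3 or 5. The median log2 fold change was −0.06 over the members and 0.09 over all genes tested, and the latter became 0.01 when libraries were scaled by median-of-ratios factors. In a bulk heart, fewer cells of a type and less RNA per cell cannot be told apart.

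**Figure D1:**
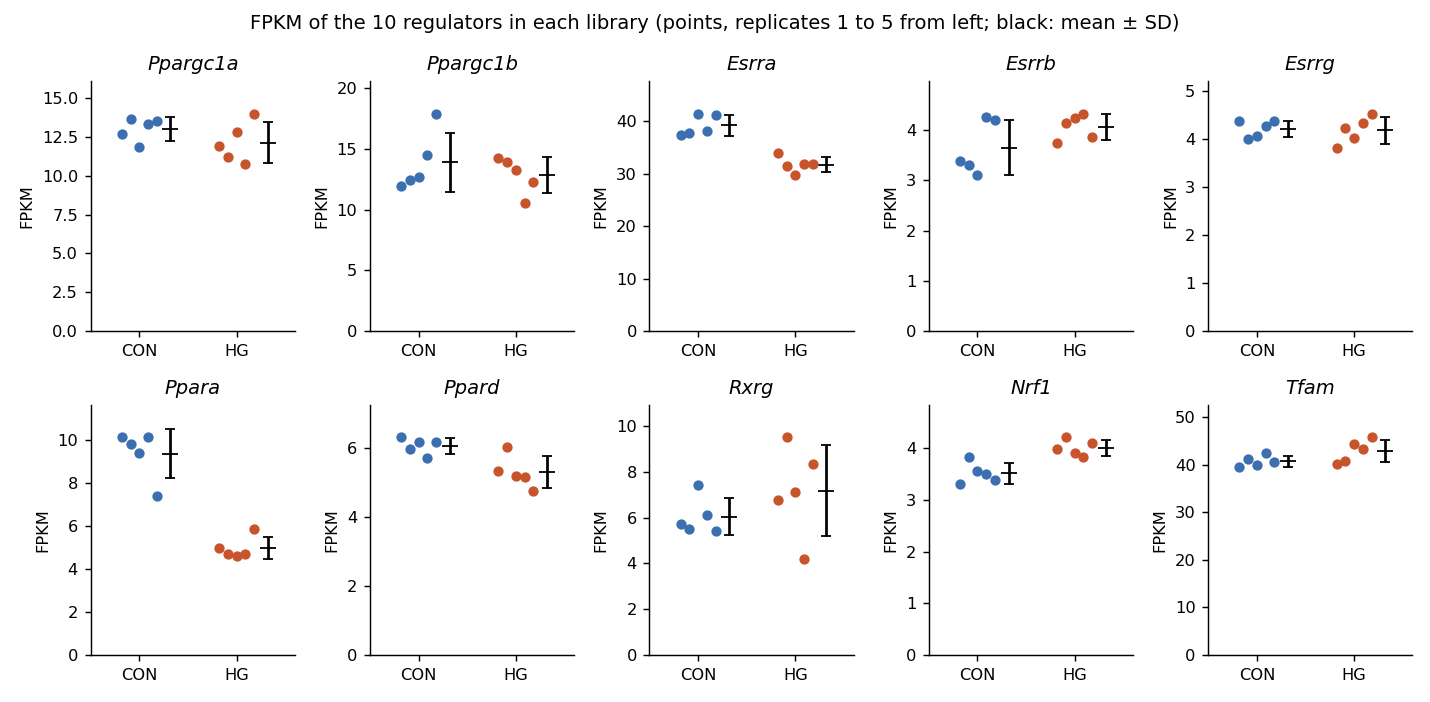
FPKM of each of the 10 regulators (y axis, from 0, a separate scale for each gene) in the 5 CON (blue) and 5 HG (orange) libraries, with replicates 1 to 5 from left to right and the mean ± SD in black. The groups are well apart for Ppara and Esrra, touch for Nrf1 and overlap for the other 7 genes.

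Levels of the members spanned an order of magnitude within the heart. In CON, Tfam had the highest mean level, 40.7 FPKM, followed by Esrra at 39.2 FPKM, and their libraries overlapped. Ppargc1b and Ppargc1a came next at 13.9 and 13.0 FPKM and also overlapped, followed without overlap by Ppara at 9.37 FPKM. Ppard and Rxrg overlapped at 6.06 and 6.04 FPKM, and Esrrg, Esrrb and Nrf1 were lowest, at 4.22, 3.65 and 3.51 FPKM, each overlapping with its neighbour. In HG the order changed in the middle, with Ppara now below Rxrg and Ppard at 4.96 against 7.17 and 5.29 FPKM, although Rxrg overlapped with Ppard and Ppard with Ppara. Tfam and Esrra, which overlapped in CON, were separate in HG, at 42.9 and 31.8 FPKM.

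Among the receptors, the PPARs carried the largest difference. Ppara encodes PPARα, the fatty acid sensor that governs oxidation genes in heart and liver. Its level was 10.1, 9.80, 9.41, 10.1 and 7.40 FPKM in CON replicates 1 to 5 and 4.97, 4.69, 4.58, 4.71 and 5.85 FPKM in HG replicates 1 to 5. Every HG library was below every CON library, and replicate 5 was the nearest to the other group on each side. The mean fell from 9.37 ± 1.14 to 4.96 ± 0.518 FPKM (SD, n = 5 each), to 53.0% of CON, with a log2 fold change of −0.90 (SE 0.0946, 95% interval −1.11 to −0.69, limma adjusted p = 2.50e-05). Between 745 and 1727 reads per library lay behind these values. Ppara is among the genes that the study itself picked from these libraries, so that its direction is not independent evidence. The liver also expresses Ppara, and without CON replicate 3 the log2 fold change was −0.90 as well (adjusted p = 0.000123). Summed liver markers were still higher in every other CON library (3.15 to 7.87 FPKM) than in HG (1.33 to 2.60 FPKM). The part of liver RNA in the level of Ppara was not tested.

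Ppard, which encodes the widely expressed PPARδ, differed less. It had 6.30, 5.95, 6.17, 5.70 and 6.17 FPKM in CON and 5.31, 6.03, 5.18, 5.16 and 4.75 FPKM in HG. HG replicate 2 lay within the CON range, and the other 4 HG libraries lay below it. The mean was 6.06 ± 0.237 in CON and 5.29 ± 0.466 FPKM in HG (log2 fold change −0.20, SE 0.0663, 95% interval −0.34 to −0.05, adjusted p = 0.0325). This call was made under 11 of 21 alternatives, with adjusted p between 0.00781 and 0.0718. It was lost with TPM, with hemoglobin genes left out, and without CON replicate 1, 3 or 5 (0.0718, 0.0658 and 0.0624) or HG replicate 1, 3, 4 or 5 (0.0530, 0.0653, 0.0596 and 0.0710).

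Because FPKM is relative to gene length, the 2 receptors can be compared within a library. The ratio of Ppara to Ppard was 1.61, 1.65, 1.53, 1.78 and 1.20 in CON and 0.936, 0.778, 0.884, 0.913 and 1.23 in HG. Ppara was above Ppard in 5 of 5 CON libraries and in 1 of 5 HG libraries, replicate 5. The medians were 1.61 and 0.913, and the ranges of the groups overlapped by the 2 libraries with replicate number 5. Read numbers cannot say which receptor is more abundant as protein.

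**Figure D2:**
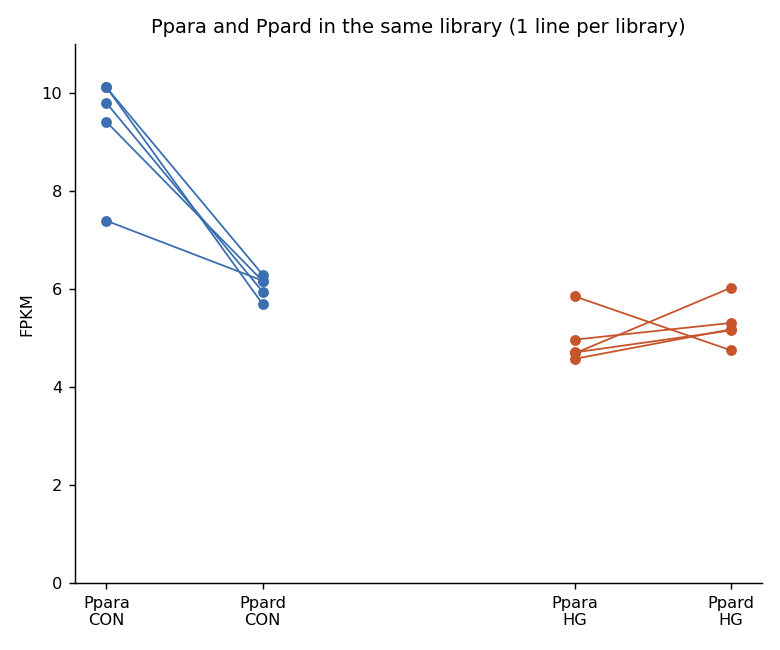
FPKM of Ppara and Ppard (y axis, from 0) in the same library, joined by 1 line per library, for the 5 CON libraries (blue, left) and the 5 HG libraries (orange, right). All CON lines fall from Ppara to Ppard, whereas 4 of the 5 HG lines rise and the line of replicate 5 falls.

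Rxrg encodes RXRγ, the retinoid X receptor enriched in striated muscle, with which PPARs can pair. It had 5.74, 5.51, 7.42, 6.13 and 5.42 FPKM in CON, and 6.76, 9.51, 7.10, 4.18 and 8.33 FPKM in HG. HG held both the highest and the lowest library, and the coefficient of variation in HG was 27.8%, beside a counting error of 7.60% at the lowest read number of 173. The log2 fold change was 0.20 (SE 0.178, 95% interval −0.18 to 0.59, adjusted p = 0.396), so that a difference was not detectable at this spread. Single HG libraries moved this value in both directions, to 0.38 without replicate 4 (adjusted p = 0.0228) and to 0.0893 without replicate 2 (adjusted p = 0.709).

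Of the estrogen-related receptors, which bind DNA without a known natural hormone, Esrra was the most abundant and differed between the groups. ERRα, its product, is a main partner of PGC-1α on respiratory chain genes. Esrra had 37.5, 37.8, 41.5, 38.2 and 41.2 FPKM in CON and 33.9, 31.4, 29.7, 31.9 and 31.8 FPKM in HG. All HG libraries were below all CON libraries, with a gap between 33.9 and 37.5 FPKM. Its mean fell from 39.2 ± 1.93 to 31.8 ± 1.49 FPKM, to 81.0% of CON (log2 fold change −0.30, SE 0.0449, 95% interval −0.40 to −0.21, adjusted p = 0.000269). Like Ppara, it was called under all 21 alternatives, and the highest adjusted p among them was 0.00355.

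Esrrb and Esrrg, the receptors ERRβ and ERRγ, were far less abundant and did not pass the test. Esrrb had 3.39, 3.29, 3.10, 4.25 and 4.20 FPKM in CON and 3.73, 4.13, 4.24, 4.32 and 3.85 FPKM in HG. The CON libraries fell into a low set of 3 and a high set of 2, and the latter lay within the HG range (log2 fold change 0.16, 95% interval −0.05 to 0.37, adjusted p = 0.214). Esrrg, which is known to drive the oxidative program of the heart after birth, had 4.37, 4.00, 4.07, 4.27 and 4.37 FPKM in CON and 3.81, 4.24, 4.02, 4.34 and 4.53 FPKM in HG. The HG values enclosed the CON values, and the difference was −0.01 with a 95% interval of −0.15 to 0.13 (adjusted p = 0.910), which turned to 0.03 with TPM. Esrra made up 81.8 to 85.3% of the summed FPKM of the 3 receptors in CON (median 82.8%) and 78.3 to 81.8% in HG (median 79.0%).

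The coactivators themselves were not called. Ppargc1a had 12.7, 13.6, 11.8, 13.3 and 13.5 FPKM in CON and 11.9, 11.2, 12.8, 10.7 and 14.0 FPKM in HG. HG held the highest as well as the 2 lowest libraries, and the groups overlapped. Means were 13.0 ± 0.749 and 12.1 ± 1.30 FPKM (log2 fold change −0.10, SE 0.0715, 95% interval −0.26 to 0.05, adjusted p = 0.272), with 1892 to 2486 reads per library. With median-of-ratios factors the log2 fold change was −0.19 (adjusted p = 0.0375) and with quantile normalization also −0.19 (adjusted p = 0.0435). Single libraries moved it as well, to −0.06 without HG replicate 4 (adjusted p = 0.514) and to −0.16 without HG replicate 5 (adjusted p = 0.0719).

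Ppargc1b had 12.0, 12.5, 12.7, 14.5 and 17.9 FPKM in CON, and 14.3, 13.9, 13.3, 10.5 and 12.3 FPKM in HG. CON replicate 5 was the highest and HG replicate 4 the lowest, and the remaining libraries were mixed. The log2 fold change was −0.11 (SE 0.111, 95% interval −0.35 to 0.14, adjusted p = 0.479), and without CON replicate 5 it was −0.01 (adjusted p = 0.932). The ratio of Ppargc1a to Ppargc1b was 0.754 to 1.10 in CON and 0.806 to 1.14 in HG, on both sides of 1 in each group.

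Nrf1 encodes NRF-1, and is distinct from the stress factor of similar name encoded by Nfe2l1. It had 3.30, 3.83, 3.56, 3.50 and 3.38 FPKM in CON and 3.99, 4.21, 3.91, 3.83 and 4.10 FPKM in HG. The groups did not overlap, but the highest CON library (replicate 2) and the lowest HG library (replicate 4) both rounded to 3.83 FPKM. Its mean rose from 3.51 ± 0.201 to 4.01 ± 0.152 FPKM (log2 fold change 0.19, SE 0.0628, 95% interval 0.05 to 0.32, adjusted p = 0.0326). It was called under 10 of 21 alternatives. With median-of-ratios factors the log2 fold change was 0.10 (adjusted p = 0.238) and with quantile normalization 0.08 (adjusted p = 0.334), where the median of all genes was 0.01 and 0.02. The call was also lost with the replicate number as a block (adjusted p = 0.0691). Omitting CON replicate 1, 3, 4 or 5 (adjusted p = 0.0768, 0.0540, 0.0570 and 0.0675) or HG replicate 1, 2, 3 or 5 (0.0544, 0.0712, 0.0501 and 0.0584) lost it too.

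Tfam had 39.5, 41.3, 39.9, 42.5 and 40.5 FPKM in CON and 40.2, 40.9, 44.3, 43.3 and 45.8 FPKM in HG. The 3 highest libraries were HG, and the other 2 HG libraries lay within the CON range. The log2 fold change was 0.07 (95% interval −0.02 to 0.16, adjusted p = 0.194), and it turned to −0.02 with median-of-ratios factors.

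**Figure D3:**
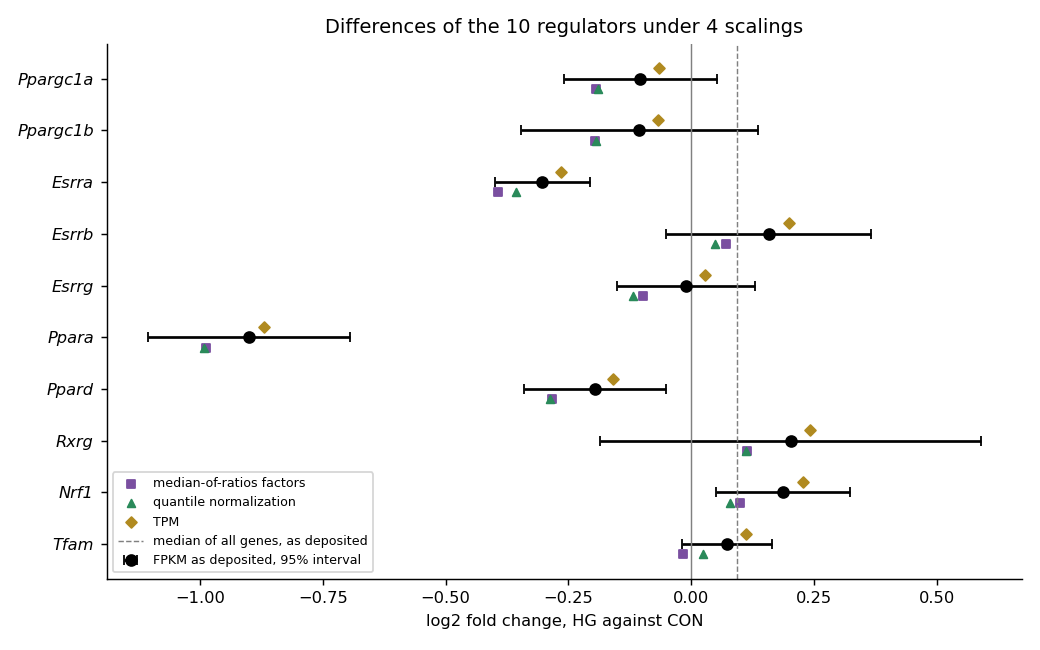
Log2 fold change of HG against CON (x axis) for the 10 regulators, as the deposited FPKM give it with the 95% interval (black), and under median-of-ratios factors, quantile normalization and TPM (coloured marks). Ppara and Esrra lie below 0 under all 4 scalings, Tfam crosses 0 with median-of-ratios factors and Esrrg with TPM, and the dashed line marks the median of all genes, 0.09.

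Genes with the most similar pattern over the 10 libraries were sought for Ppargc1a and Ppara, as the smallest mean absolute difference of log2(FPKM + 0.1) after each gene was centred on its mean. For Ppargc1a these were Zcchc9 (0.0336), Rubcn (0.0343) and Rfesd (0.0375), where the median of all genes was 0.178. For Ppara these were Ppm1e, a protein phosphatase (0.0722), Syt14, a synaptotagmin (0.0861), and Hyou1, a chaperone of the endoplasmic reticulum (0.0880), where the median of all genes was 0.506. All 6 were picked for their likeness, which is therefore a description. Those of Ppara follow a gene that separates the groups, so that their own separation was fixed by the choice and no test is given. Mean levels in CON and HG were 58.2 and 32.7 FPKM for Hyou1, 3.80 and 2.12 FPKM for Ppm1e, and 0.267 and 0.107 FPKM for Syt14, which was near the filter.

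Around the 10 regulators, 6 lists of genes were read: other coregulators, other nuclear receptors, the machinery of mitochondrial DNA, upstream factors of Ppargc1a, PPAR target genes, and target genes of ERRs and NRF-1. Genes called ranged from 26.7% of the other nuclear receptors to 100% of the ERR and NRF-1 targets. The lists are described by their counts and medians beside those of all genes, for which 40.1% were called and the median was 0.09. They were chosen with earlier results of these data known, so that their shares are a description.

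Of the coregulators of PGC-1 and nuclear receptors, 16 of 16 were tested. In HG, 6 were higher, 1 was lower and 9 did not pass (43.8% called, median 0.07), and 4 did not overlap between the groups, beside 27.4% of all genes. With median-of-ratios factors or quantile normalization the split was 1 higher and 4 lower. The lower gene was Perm1, a muscle regulator induced by PGC-1 and ERRs that supports oxidative genes. Perm1 had 17.9, 16.5, 16.2, 15.2 and 20.004 FPKM in CON and 4.42, 6.45, 5.66, 5.60 and 6.49 FPKM in HG, with no overlap and with every HG library below every CON library by a wide gap. Its mean fell from 17.2 ± 1.86 to 5.72 ± 0.844 FPKM (log2 fold change −1.57, SE 0.104, adjusted p = 1.09e-06). Among the higher genes were Med1, the Mediator subunit that contacts nuclear receptors, from 11.8 to 14.0 FPKM (0.24, adjusted p = 0.00345), and Kat2a, an acetyltransferase that restrains PGC-1α (0.19, adjusted p = 0.0155). Pprc1, the PGC-1-related coactivator and the other member of the coactivator family, was chosen after its value was seen (0.14, adjusted p = 0.0303). The calls of Kat2a and Pprc1 were lost with median-of-ratios factors (adjusted p = 0.154 and 0.479), and that of Pprc1 also without CON replicate 1, 3 or 4 (0.0631, 0.0652 and 0.0590) or HG replicate 1, 3 or 4 (0.0719, 0.0565 and 0.0544).

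Of the other nuclear receptors of energy metabolism, 15 of 16 were tested, since Hnf4a was under the filter. In HG, 1 was higher, 3 were lower and 11 did not pass (26.7% called, median 0.00), and with TPM the split was 2 higher and 1 lower. Pparg, the fat cell receptor of the PPAR family, fell from 0.791 ± 0.229 to 0.341 ± 0.0855 FPKM (log2 fold change −0.99, SE 0.218, adjusted p = 0.00349), at levels far below those of Ppara and Ppard. At this level the value depended on the pseudocount, with −0.41 at a pseudocount of 1 and −1.17 at 0.01, and it was −1.18 without CON replicate 2. CON replicate 2, at 0.412 FPKM, lay below HG replicate 1, at 0.459 FPKM, so that the groups overlapped. The study picked Pparg too from these libraries. Rxra, the main RXR partner in the heart, fell from 18.9 ± 0.675 to 16.8 ± 1.28 FPKM (−0.17, adjusted p = 0.0232), a call that was lost with TPM (0.0811) and without CON replicate 3 or 4 (0.0550 and 0.0534) or HG replicate 4 (0.0505). Nr2f2, which encodes COUP-TFII, an atrial and venous factor, rose from 5.27 to 6.51 FPKM (0.30, adjusted p = 0.00496). Thra, the thyroid hormone receptor α and the remaining lower gene, was singled out after its value was seen (−0.13, adjusted p = 0.0486), and its call was lost without CON replicate 2, 3 or 4 or HG replicate 1, 3, 4 or 5 (adjusted p between 0.0692 and 0.111).

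The machinery that NRF-1, NRF-2 and Tfam serve was tested in full, 21 of 21 genes. In HG, 5 were higher, 2 were lower and 14 did not pass (33.3% called, median −0.02), and 3 did not overlap, beside 27.4% of all genes. With median-of-ratios factors or quantile normalization 1 was higher and 6 were lower, so that the balance of this list depended on the scaling. Gabpa, the DNA-binding subunit of NRF-2, rose from 11.2 ± 0.532 to 13.5 ± 0.933 FPKM (log2 fold change 0.26, SE 0.0564, adjusted p = 0.00301), and its partner Gabpb1 rose as well (0.23, adjusted p = 0.00962). Top1mt, the mitochondrial topoisomerase, was low and higher in HG (2.12 to 2.69 FPKM, 0.33, adjusted p = 0.0124). Both Gabpb1 and Top1mt lost the call with median-of-ratios factors (adjusted p = 0.106 and 0.0547), whereas Gabpa kept it under all 21 alternatives.

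The remaining calls of that list were named after their values had been seen. Ssbp1, which coats single-stranded mitochondrial DNA, and Primpol, a primase, were higher (0.24, adjusted p = 0.0133, and 0.47, adjusted p = 0.0225), and both calls were lost with median-of-ratios factors (0.0917 and 0.0642). Primpol was also lost without CON replicate 3 (0.0530) or HG replicate 4 (0.0532). Tfb2m, the transcription factor that opens mitochondrial promoters together with Tfam, was lower (−0.16, adjusted p = 0.0401), as was Mterf4, which serves the mitochondrial ribosome (−0.21, adjusted p = 0.0292). The call of Tfb2m was lost without CON replicate 2, 3, 4 or 5 or HG replicate 1, 2 or 3 (adjusted p between 0.0543 and 0.0915), and that of Mterf4 without CON replicate 1, 2, 3 or 5 or HG replicate 1 or 5 (0.0505 to 0.0650). Polrmt, the mitochondrial RNA polymerase, had 9.86 ± 0.715 FPKM in CON and 8.74 ± 0.616 FPKM in HG (−0.17, adjusted p = 0.0507). It was called under 6 of 21 alternatives, with adjusted p = 0.0105 for median-of-ratios factors, 0.00893 for quantile normalization, 0.0431 for a filter at 1 FPKM, 0.0458 for voom, 0.0195 without CON replicate 2 and 0.0273 without HG replicate 2. Polg, the replicative DNA polymerase, had 16.9 and 16.1 FPKM (−0.07, adjusted p = 0.339).

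Upstream of Ppargc1a, kinases and calcium-dependent factors were tested for 21 of 22 genes, with Camk4 under the filter. In HG, 5 were higher, 4 were lower and 12 did not pass (42.9% called, median 0.07), and 6 did not overlap, beside 27.4% of all genes. With median-of-ratios factors or quantile normalization the split was 3 higher and 5 lower. The higher genes included 3 of the 6 listed subunits of AMPK, the kinase that senses low energy. Prkaa1, the catalytic α1 subunit, had 8.82, 8.98, 9.73, 8.89 and 8.90 FPKM in CON and 11.5, 11.6, 12.6, 11.6 and 11.7 FPKM in HG. The groups did not overlap, and replicate 3 was the highest in each. Its log2 fold change was 0.38 (SE 0.0466, adjusted p = 7.90e-05), and that of the regulatory subunit Prkag2 was 0.24 (adjusted p = 0.00366).

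Prkab2, another AMPK subunit, was higher too (0.30, adjusted p = 0.00609), and the 3 subunits kept the call under all 21 alternatives. Prkaa2, the α2 subunit that predominates in the adult heart, had 26.0 and 24.4 FPKM (−0.10, adjusted p = 0.198), and was called only with median-of-ratios factors (−0.18, adjusted p = 0.0194). The remaining subunits Prkab1 (0.10, adjusted p = 0.182, and 0.0265 without HG replicate 5) and Prkag1 (0.01, adjusted p = 0.916) were not called either, and Prkag1 turned negative with median-of-ratios factors and quantile normalization. Foxo3, a factor of stress and atrophy genes, fell from 10.5 ± 0.268 to 8.56 ± 0.720 FPKM (−0.30, adjusted p = 0.00156). The other calls, like Prkab2, Prkaa2, Prkab1 and Prkag1 named after their values were seen, were Crtc1, a coactivator of CREB (0.17, adjusted p = 0.0314), and Ppp3cb, a calcineurin subunit (0.12, adjusted p = 0.0427), as higher, and Mapk14, the p38α kinase (−0.15, adjusted p = 0.0111), Mef2d (−0.14, adjusted p = 0.0272) and Tfeb (−0.22, adjusted p = 0.0207), as lower. Crtc1 and Ppp3cb lost their call with median-of-ratios factors (adjusted p = 0.295 and 0.619), and Mapk14 and Mef2d lost it with TPM (0.0678 and 0.137). Single libraries also decided calls, that of Tfeb without CON replicate 3 (0.0545), of Crtc1 without CON replicate 2 or 3 or HG replicate 2 or 5 (0.0615 to 0.0733), of Mef2d without CON replicate 3, 4 or 5 or HG replicate 1, 3 or 4 (0.0531 to 0.0659), and of Ppp3cb without CON or HG replicate 3, 4 or 5 (0.0518 to 0.0983).

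**Figure D4:**
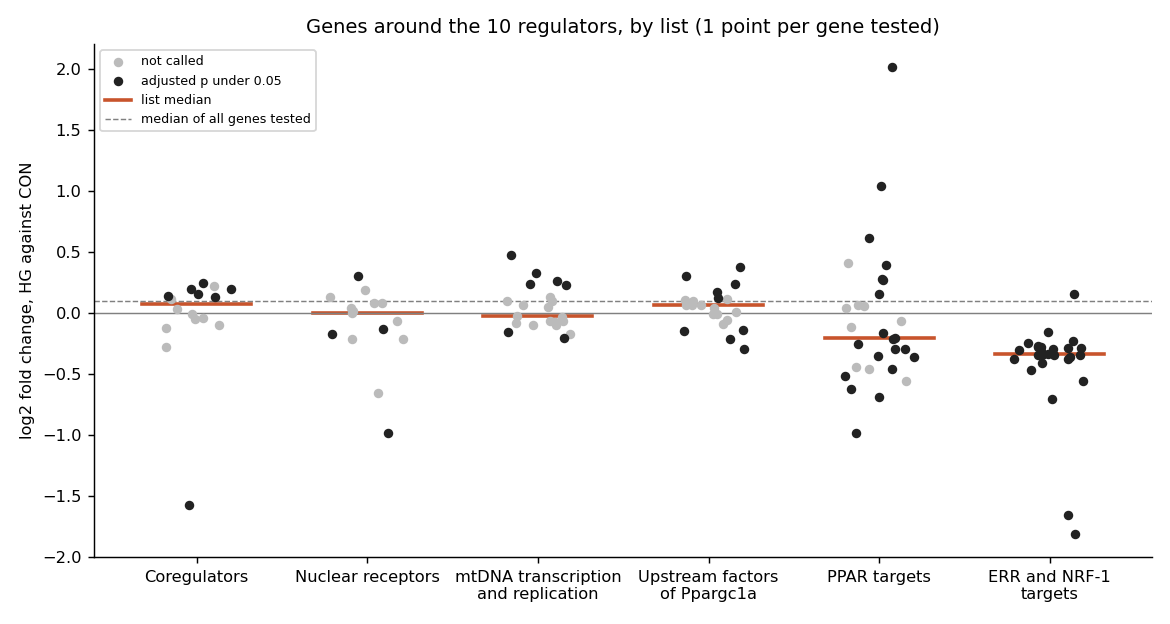
Log2 fold change of HG against CON (y axis) for each gene tested in 6 lists (x axis), black where the adjusted p was under 0.05 and grey otherwise, with the median of each list in orange and the median of all genes, 0.09, dashed. The ERR and NRF-1 targets lie below 0 except 1 gene, the PPAR targets spread on both sides, and the other 4 lists centre near 0.

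Downstream, PPAR target genes moved in both directions. Of 30 genes 29 were tested, since Ucp3 was under the filter, and in HG 7 were higher, 13 were lower and 9 did not pass (69.0% called beside 40.1% of all genes, median −0.21). The groups did not overlap for 20, beside 27.4% of all genes, and 2 passed the fold change of 2, both of them higher, beside 1.94%. With median-of-ratios factors the split was 5 higher and 15 lower. Most lower genes serve the import and the β-oxidation of fatty acids. Lpl, the lipase that frees fatty acids at the vessel wall, fell from 43.1 ± 2.55 to 21.7 ± 1.06 FPKM (log2 fold change −0.98, SE 0.0488, adjusted p = 2.00e-07), and its CON libraries lay at 40.4 to 45.9 FPKM and its HG libraries at 20.7 to 23.4 FPKM. Acsl1, which activates fatty acids with coenzyme A, fell from 62.3 ± 1.66 to 40.4 ± 2.36 FPKM (−0.62, adjusted p = 1.20e-06).

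Further lower genes of this list were picked with values in view. The cytosolic carrier Fabp3 fell from 1049 ± 15.7 to 761 ± 27.0 FPKM (−0.46), Cpt1b, the muscle carnitine transferase that admits fatty acids to the mitochondrion, from 155.9 ± 5.11 to 126.8 ± 4.04 FPKM (−0.30, adjusted p = 5.09e-05), and Acadm, the medium-chain dehydrogenase, from 71.5 ± 6.90 to 55.2 ± 2.39 FPKM (−0.37, adjusted p = 0.000628). None of these 3 overlapped between the groups.

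The higher PPAR targets included an inhibitor of Lpl's product and a brake on pyruvate use. Angptl4, a secreted inhibitor of lipoprotein lipase, had 0.485, 0.696, 0.443, 0.429 and 0.469 FPKM in CON, and 2.25, 2.39, 2.45, 2.32 and 2.17 FPKM in HG. All HG libraries were above 2 FPKM and all CON libraries below 1 FPKM. The log2 fold change was 2.01 (SE 0.122, adjusted p = 6.36e-07), and 1.14 with a pseudocount of 1. Acot1, a thioesterase that releases fatty acids from coenzyme A, rose from 1.55 ± 0.205 to 3.29 ± 0.356 FPKM (1.04, adjusted p = 1.99e-05).

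The other 5 higher targets were named with their values already seen. Pdk4, the kinase that shuts pyruvate out of the citric acid cycle, rose from 9.20 ± 1.08 to 14.1 ± 1.30 FPKM (log2 fold change 0.61, SE 0.0848, adjusted p = 0.000166), and the mitochondrial carrier Ucp2 from 145.9 ± 7.51 to 192.0 ± 13.2 FPKM (0.39, adjusted p = 9.86e-05). Decr1, an enzyme of unsaturated fatty acid oxidation, and the thioesterase Acot2 were higher by 0.27 each (adjusted p = 0.00722 and 0.0159). Cpt1a, the carnitine transferase of the fetal heart and the liver, was higher by 0.15 (adjusted p = 0.00754), the opposite direction to Cpt1b. The calls of Acot2 and Cpt1a were lost with median-of-ratios factors (adjusted p = 0.0966 and 0.281).

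**Figure D5:**
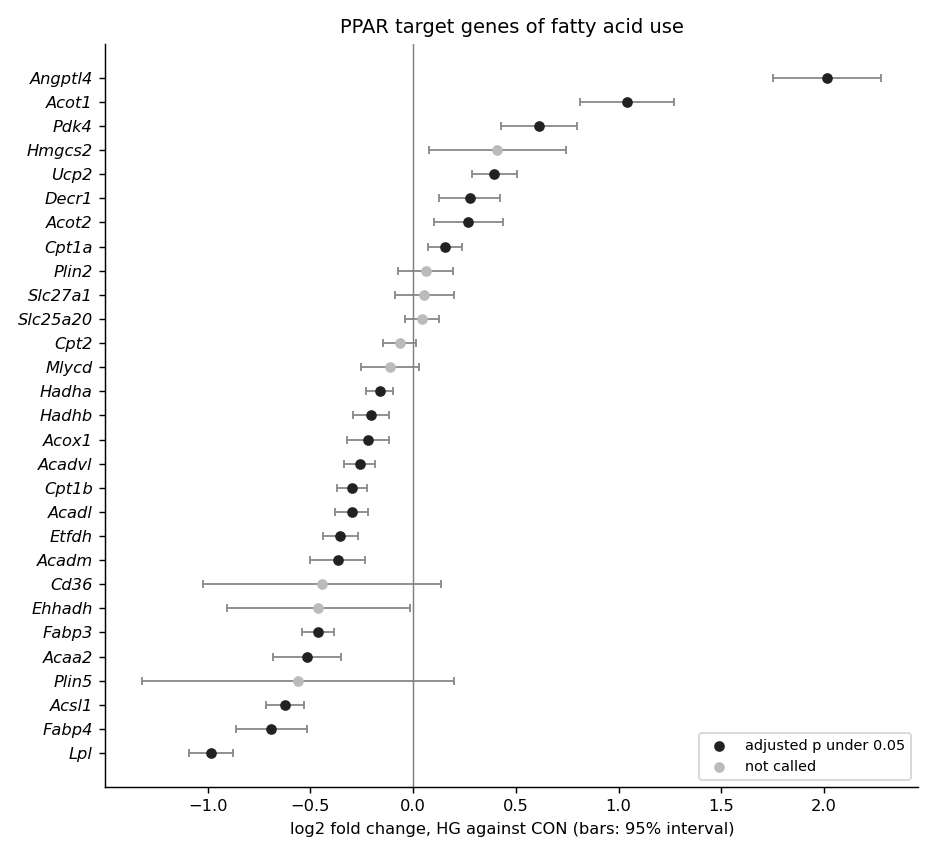
Log2 fold change of HG against CON with its 95% interval (x axis) for the 29 PPAR target genes tested (y axis), in order of the change, black where the adjusted p was under 0.05 and grey otherwise. Angptl4, at 2.01, and Acot1, at 1.04, stand highest and Lpl, at −0.98, lowest.

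Target genes of ERRs and NRF-1 in the respiratory chain and energy transfer were lower almost throughout. Of 27 genes 26 were tested, with Cox7a1 not matched by symbol, and 25 were lower and 1 was higher (100% called beside 40.1% of all genes, median −0.34). The list was chosen with earlier results known, and the 40.1% covers genes of every level from a mean of 0.1 FPKM. With median-of-ratios factors the median was −0.43, and 25 were lower and 0 higher. The groups did not overlap for 25, beside 27.4% of all genes, and the exception was Tfb2m, which also stands in the list of mitochondrial DNA machinery. Cardiomyocyte markers moved the same way, with 7 of 8 lower, Nppa higher (0.71, adjusted p = 0.000797) and a median of −0.38, and the part of cardiomyocyte content in the lower targets and in Ppara, Esrra and Perm1 was not tested.

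The largest differences in that list were in genes of oxygen and phosphate handling rather than of the chain itself. Mb, myoglobin, had 1392, 1037, 1195, 1161 and 1182 FPKM in CON and 417, 314, 365, 378 and 420 FPKM in HG. The groups were far apart, and the log2 fold change was −1.66 (SE 0.0870, adjusted p = 2.41e-07). Ckmt2, the mitochondrial creatine kinase of muscle, fell from 16.2 ± 4.03 to 4.46 ± 0.523 FPKM (−1.82, SE 0.146, adjusted p = 3.58e-06), also without overlap.

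Slc25a4, the ADP/ATP carrier of heart and muscle, fell from 1954 ± 42.5 to 1327 ± 58.2 FPKM (log2 fold change −0.56, SE 0.0405, adjusted p = 1.81e-06). Cycs, cytochrome c, a textbook NRF-1 target, fell from 407.8 ± 23.3 to 317.8 ± 30.9 FPKM (−0.36, adjusted p = 0.000792), and Cox6a2, the muscle form of a cytochrome c oxidase subunit, from 546.2 ± 58.5 to 335.8 ± 52.7 FPKM (−0.71, adjusted p = 0.000278). The single higher gene was Tomm20, a receptor of the import pore, from 152.5 ± 3.54 to 169.3 ± 4.00 FPKM (0.15, adjusted p = 0.00206), whose call was lost with median-of-ratios factors (0.220). Cycs, Cox6a2 and Tomm20 were picked after their values had been seen.

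Markers of other cells were read beside these results, against 28.4% of all genes called higher and 11.8% called lower. Endothelial markers summed to 210 to 228 FPKM in CON and 215 to 230 FPKM in HG, with 1 of 5 called. Smooth muscle markers were higher in HG for 3 of 4 genes (651 to 778 against 888 to 1121 FPKM), macrophage markers for 3 of 5 (18.6 to 23.3 against 23.4 to 29.0 FPKM) and 2 of 3 tested skeletal muscle genes (2.96 to 5.76 against 5.31 to 8.37 FPKM), with Myod1 and Actn3 under the filter. Erythroid markers were lower for 5 of 6 (7008 to 12558 against 5173 to 7258 FPKM), liver markers for 4 of 5, and fibroblast markers were mixed, with 2 higher and 3 lower of 7 (1690 to 1955 against 1533 to 1749 FPKM). Of the brown adipocyte genes Ucp1 and Adipoq were under the filter and near 0 in both groups, and Cidea was lower (15.8 against 10.5 FPKM). The part of these cells in the levels of the 10 regulators was not tested.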

How the data were processed

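Stranded mRNA libraries of fetal heart (5 CON, 5 HG) were sequenced on an Illumina instrument. The authors deposited FPKM per gene, that is, reads divided by gene length and library size. The submitters' processing notes name fastp, HISAT2, HTSeq, R 3.2.0 and the build mRatBN7.2, and the annotation is not given in the sources used here. Because promoters came from GRCr8, no coordinates were joined to the values. All per-sample columns were used (0 unused).

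The 10 genes and the gene lists were chosen with earlier results of these data known. A gene entered the test when its mean over the libraries reached 0.1 FPKM, which 14542 genes did and 3483 did not. limma 3.58.1 in R 4.3.3 was fitted to log2(FPKM + 0.1), as a two-sided moderated linear model with a trend on expression and Benjamini-Hochberg adjustment over the tested genes. DESeq, which the methods name, takes counts and was not used on FPKM. Reads recovered from the steps between FPKM values were whole for 100% of genes, and voom on them was added after the data were seen. Depth was compared with an exact permutation test. Tables and plots used Python 3.11.15, numpy 2.4.6, pandas 2.3.3, scipy 1.17.1 and matplotlib 3.10.9, and limma was tested on simulated data. Reads recovered per library are given with the values. Intervals of 95% are limma's confidence intervals for the difference of the group means on the log2 scale. They rest on the spread between libraries, moderated over genes.

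Named were the 10 members, in each list the 3 genes with the smallest adjusted p and any past a fold change of 2, and 3 genes most similar in pattern to Ppargc1a and to Ppara. Others are marked as picked with values in view. Results were recomputed under 21 alternatives: another pseudocount (1 or 0.01), another filter (none or 1 FPKM), another scaling (median-of-ratios factors, TPM, quantile normalization, or removal of 12 hemoglobin genes), another model (no trend, a replicate block, voom), and omission of any single library.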

Additional observations from a re-analysis of the deposited data

Results flagged for a closer look

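For each gene followed, the highest and the lowest library of a group of 5 were compared with the rest by Dixon's ratio, the gap to the nearest library over the whole range, with a critical value of 0.71. The groups numbered 132, from 65 genes and the total reads on genes, each in CON and HG. Of these 8 exceeded it, and chance alone gives about 1 in 20. Among the regulators this was Ppara in CON replicate 5, the lowest at 7.40 FPKM where the others lay at 9.41 to 10.1 FPKM (ratio 0.740), and without it the log2 fold change was −0.98. In the AMPK list, replicate 3 was the highest for Prkaa1 in CON, at 9.73 FPKM beside 8.82 to 8.98 (0.826), and in HG, at 12.6 FPKM beside 11.5 to 11.7 (0.814). Foxo3 was highest in HG replicate 2, at 9.83 FPKM beside 8.13 to 8.46 (0.807), and Prkag2 was lowest in HG replicate 1, at 7.74 FPKM beside 8.63 to 8.86 (0.795). Gabpb1 was lowest in HG replicate 5, at 6.54 FPKM beside 7.16 to 7.38 (0.747). Angptl4 was highest in CON replicate 2, at 0.696 FPKM beside 0.429 to 0.485 (0.790), and Zcchc9 was lowest in CON replicate 3, at 20.3 FPKM beside 22.5 to 23.2 (0.741).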

How the results depend on the processing

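Of 65 genes recomputed, 34 kept their direction and their side of the threshold under every one of the 21 alternatives that could be fitted (Pparg and Syt14 fall below a filter at 1 FPKM), among them Ppara, Esrra, Perm1, Lpl, Angptl4 and Mb. Ppara ranged from −0.99 to −0.79 and Esrra from −0.39 to −0.26. All genes called ranged from 4834 with median-of-ratios factors to 6376 with TPM, and voom on recovered reads called 5961. Genes past the study's threshold numbered 282, and 134 with a filter at a mean of 1 FPKM, 64 with a pseudocount of 1 and 426 with voom. Syt14 moved with the pseudocount from −0.19 at 1 to −1.24 at 0.01, and was −1.31 with voom. Zcchc9 was called under 4 alternatives (adjusted p = 0.00770 to 0.0453, without CON replicate 3 or HG replicate 5 among them), Rubcn under 2 and Rfesd under 1. Zcchc9, Rubcn and Rfesd were picked for their likeness to Ppargc1a in the same libraries, so that these calls are a description. Depth behind a member was lowest for Rxrg, with 173 to 410 reads per library.

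With median-of-ratios factors and with quantile normalization, coregulators counted 1 higher and 4 lower (main values 6 and 1), the mitochondrial DNA machinery 1 higher and 6 lower (5 and 2) and the upstream factors 3 higher (5). With median-of-ratios factors the ERR and NRF-1 targets counted 0 higher (1), and Tfam turned to −0.0171. Prkag1, at 0.0065, turned to −0.0830 with median-of-ratios factors and −0.0381 with quantile normalization. With TPM, other nuclear receptors counted 2 higher and 1 lower (1 and 3), the mitochondrial DNA machinery 0 lower, the upstream factors 2 lower (4), and Esrrg turned to 0.0271. With hemoglobin genes left out, other nuclear receptors counted 1 lower, the mitochondrial DNA machinery 1 lower, and Esrrg turned to 0.0119. With voom, coregulators counted 2 lower, the mitochondrial DNA machinery 1 lower and the upstream factors 3 higher. The median-of-ratios factors were 0.964 to 0.972 in CON and 1.01 to 1.06 in HG, without overlap, so that dividing by them lowered the log2 fold changes. What set the factors of the groups apart was not tested, nor was the cause of the other shifts.

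The replicate numbers did not pair the libraries, because the correlations of deviations of same-numbered libraries lay between −0.126 and 0.108 and were exceeded by other numbers. With the replicate number as a block, 2 members were called (Ppara and Esrra), 5096 of all genes, 3 coregulators higher, 1 gene of the mitochondrial DNA machinery lower, and 3 upstream factors higher and 2 lower.

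With single libraries left out, the members called ranged from 2 to 4, coregulators from 2 to 6 higher and 1 to 2 lower, other nuclear receptors from 1 to 3 lower, the mitochondrial DNA machinery from 0 to 4 lower, and the upstream factors from 3 to 5 higher and 2 to 4 lower. Members called fell to 2 without CON replicate 1, 3 or 5 or HG replicate 1, 3 or 5. Higher coregulators fell to 2 without CON replicate 1 and to 3 without CON replicate 3 or HG replicate 3, and lower coregulators rose to 2 without CON replicate 2 or HG replicate 2 or 5. Lower nuclear receptors fell to 1 without CON replicate 3 or 4 or HG replicate 4. The lower mitochondrial DNA genes were 0 without CON replicate 3 or 5 or HG replicate 1, 1 without CON replicate 1, 2 or 4 or HG replicate 3 or 5, and 4 without HG replicate 4. Without CON replicate 3 the upstream factors counted 3 higher and 2 lower. Esrrg ranged from −0.0394 to 0.0218 (without HG replicate 5 and HG replicate 1). The log2 fold change of Prkag1 ranged from −0.0212 to 0.0212 (without HG replicate 5 and HG replicate 2), and was below 0 without CON replicate 3 as well. The PPAR targets stayed within 7 to 8 higher and 13 to 14 lower, and the ERR and NRF-1 targets within 24 to 25 lower.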
